A study of Mus musculus with 2 samples.

Results

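Apolipoproteins are the protein part of lipoproteins, the particles that carry triglyceride and cholesterol through blood. Hepatocytes secrete very low density lipoprotein (VLDL), built on 1 molecule of apolipoprotein B, and supply most proteins of high density lipoprotein (HDL), whose main protein takes up cholesterol exported by Abca1. Smaller apolipoproteins move between particles and set how fast lipases and receptors act on them. Liver X receptors (LXR) sense oxysterols, and in macrophages they are known to raise transcription of Apoe and the Apoc genes beside it.

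Described here are 10 genes, Apoa1, Apoa2, Apoa4, Apoa5, Apob, Apoc1, Apoc2, Apoc3, Apoe and Apof, taken by symbol from the 36808 genes of the deposited table. Their transcripts were sequenced in C57Bl6 mouse primary hepatocytes that were given either the solvent DMSO or 1 µM of GW3965, a synthetic LXR agonist, with 1 library per group. All cells were in William E medium with serum, insulin and dexamethasone, and the labels give neither the number of animals nor the length of treatment. The letters GL name the second set of values in the table. They were taken to mean GW3965, the 1 sample of the labels beside DMSO, and whether they name anything further cannot be told. With 1 library per group no difference has a replicate check.

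Levels are FPKM, numbers of fragments scaled to transcript length and library size, so that genes can be compared per length. Low FPKM values fall in steps of 1 fragment, which place the libraries at about 63200000 (DMSO) and 78500000 (GW3965) fragments. A log2 ratio below is log2 of (FPKM + 1) in GW3965 over (FPKM + 1) in DMSO unless stated otherwise, a scale that understates differences of low genes, and the background is the 11796 genes that reached 1 FPKM in at least 1 library. All 7 known LXR targets listed as a check were at least 1.5-fold higher in GW3965, with a median log2 ratio of 1.39. They were Abca1 at 2.40, Scd1 at 2.25, Abcg1 at 2.01, Srebf1 at 1.39, Fasn at 1.31, Lpcat3 at 1.25 and Mylip at 0.95. The list was chosen with earlier results of these data known, so these values are not an independent check of the treatment. The authors' deposited table called 4 of the 7, and not Fasn (q = 0.388), Lpcat3 (q = 0.161) or Srebf1 (q = 0.709). The hepatocyte markers Hp (6437 and 4826 FPKM), Fgb (2458 and 2000) and Ttr (205 and 189) were abundant in DMSO and GW3965, while Cyp2e1 (6.53 and 6.90) and Tat (0.962 and 0.447) were low. Alb and Trf are listed at 0 in GW3965 with the mark for too many fragments and give no value.

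The RefSeq sequences before the transcription start (GRCm38.p6) were searched on both strands for the letters that LXR and related nuclear receptors are known to bind. Of the 10 genes, 7 matched the promoter table, with 11 start sites. Apoc1, Apoc3 and Apof did not match. Given here are 5 stretches free of annotated exons, from 2 starts of Apoe, the most abundant member, and from starts of Apoc2, Apoa2 and Apoa5, which hold matches. Capitals mark matches to the hexamer AGGTCA, to its repeat with 1 base between (DR1, AGGTCANAGGTCA, up to 2 mismatches) and to TATAAA. The stretch at the Apoe start furthest upstream holds none of these, and the other holds TATAAA on both strands, as overlapping matches. Bases run 5′ to 3′ on the gene's strand and end just before the start.
Apoe, chr7:19699189-19699438, minus strand: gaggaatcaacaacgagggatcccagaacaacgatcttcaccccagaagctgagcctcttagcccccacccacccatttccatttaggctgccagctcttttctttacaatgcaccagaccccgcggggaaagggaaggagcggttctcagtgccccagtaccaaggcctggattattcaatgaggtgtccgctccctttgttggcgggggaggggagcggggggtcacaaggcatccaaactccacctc
Apoe, chr7:19698622-19698871, minus strand: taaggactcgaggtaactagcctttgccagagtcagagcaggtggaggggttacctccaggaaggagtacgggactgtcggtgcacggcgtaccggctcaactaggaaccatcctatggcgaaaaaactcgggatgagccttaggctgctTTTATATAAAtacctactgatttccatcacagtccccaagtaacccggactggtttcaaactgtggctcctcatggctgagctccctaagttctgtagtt
Apoc2, chr7:19677942-19678082, minus strand: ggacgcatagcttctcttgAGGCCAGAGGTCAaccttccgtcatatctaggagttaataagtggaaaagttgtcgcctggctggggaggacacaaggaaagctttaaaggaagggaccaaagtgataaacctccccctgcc
Apoa2, chr1:171224804-171225053, plus strand: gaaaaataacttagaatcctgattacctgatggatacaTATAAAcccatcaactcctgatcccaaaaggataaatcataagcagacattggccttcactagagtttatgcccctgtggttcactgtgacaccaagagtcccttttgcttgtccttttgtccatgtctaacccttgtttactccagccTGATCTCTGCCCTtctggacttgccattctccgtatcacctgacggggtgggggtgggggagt
Apoa5, chr9:46268358-46268607, plus strand: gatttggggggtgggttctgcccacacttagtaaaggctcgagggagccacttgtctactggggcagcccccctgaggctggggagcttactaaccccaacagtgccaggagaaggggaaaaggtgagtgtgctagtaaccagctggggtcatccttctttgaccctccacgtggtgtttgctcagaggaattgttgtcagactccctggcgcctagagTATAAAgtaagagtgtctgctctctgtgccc

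The LXR element is a direct repeat of the hexamer with 4 bases between (DR4, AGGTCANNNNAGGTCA). Over the 250 bases before the start, 0 of the 11 windows of the apolipoproteins held it with up to 2 mismatches in its 12 fixed bases. Of all 32851 windows 2.57% did. At that limit 0 of the 5 LXR check genes in the promoter table held it, so the 0 does not set the apolipoproteins apart. With up to 3 mismatches, a tolerance chosen after the sequences were seen, 1 of the 7 matched apolipoprotein genes held it. So did 20.9% of all genes and 3 of the 5 LXR check genes. Those 3 elements, shown for comparison, lie on the strand opposite to the gene.
Abca1, chr4:53159947-53159962: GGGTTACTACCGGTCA
Fasn, chr11:120824757-120824772: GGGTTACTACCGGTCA
Srebf1, chr11:60210638-60210653: GGGTTACTGGCGGTCA

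The 16 bases in Abca1 and Fasn are the same. The hexamer without mismatch occurred in windows of 2 of the 7 matched apolipoprotein genes, against 15.8% of all genes. In Apoc2 it overlaps the DR1 match, and at the other start of Apoa2 the DR4 match. DR1 with up to 2 mismatches was found in Apoa2 and Apoc2, against 3.72% of all genes, and the Apoc2 match has 1 mismatch. TATAAA was found in 4 of the 7 genes, Apoa2, Apoa5, Apob and Apoe, against 14.3% of all genes. These are letter matches in short windows, and a window without one shows only that these letters are not in it.

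Apolipoprotein transcripts ranged from low (Apoa5) to among the most abundant (Apoe) and differed by at most 1.19-fold between the libraries, apart from Apof. All 10 genes were above 1 FPKM in both libraries, and together they held 1.07% of the FPKM sum in DMSO and 0.993% in GW3965. No member was at least 1.5-fold higher and 1, Apof, was at least 1.5-fold lower. Among the background genes 2.35% passed 1.5-fold in either direction and 1.33% were lower by that much. The same shares apply beside the counts of every list below. The median log2 ratio of the 10 was -0.09, with 7 of 10 below 0, beside a median of 0.01 and 47.1% below 0 over all background genes. The other 9 members lay between -0.18 and 0.25.

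**Figure D1:**
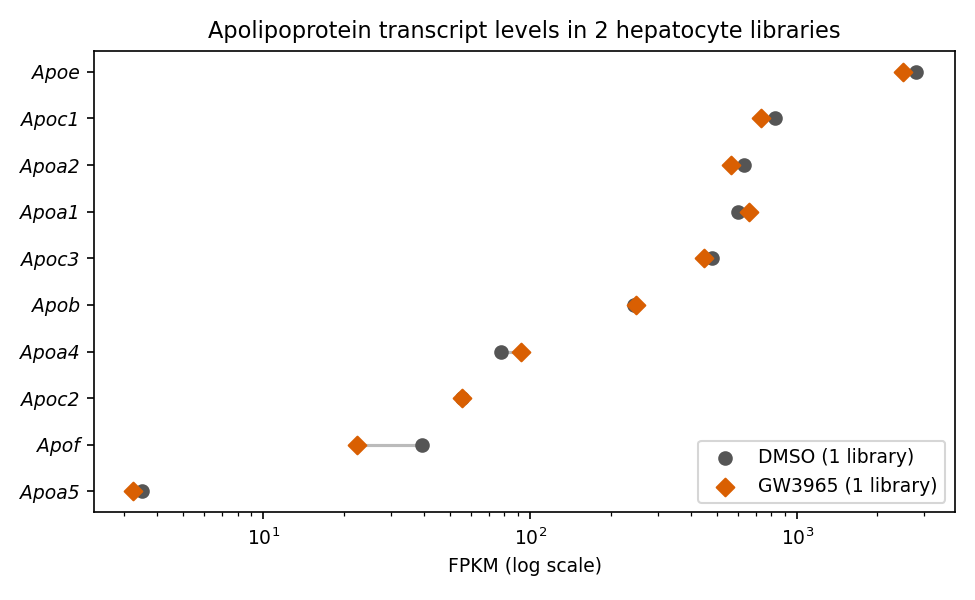
FPKM of each apolipoprotein (log axis) in the DMSO library (circles) and the GW3965 library (diamonds), 1 library each, ordered by the level in DMSO. Levels span from Apoa5 at 3.26 FPKM in GW3965 to Apoe at 2779 in DMSO, and the symbols are furthest apart for Apof.

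In the DMSO library the order from high to low was Apoe, Apoc1, Apoa2, Apoa1, Apoc3, Apob, Apoa4, Apoc2, Apof and Apoa5. Apoe stood 3.35 times above Apoc1 and 793 times above Apoa5, which was lowest. In GW3965 the order was the same except that Apoa1 and Apoa2 changed places: Apoa2 was 1.05 times Apoa1 in DMSO, and Apoa1 was 1.17 times Apoa2 in GW3965. Other close neighbours were Apoc1 and Apoa1 in GW3965, 1.11 times apart, and without replicates none of these steps can be set against a spread. The transcripts of Apoc1, Apoa2, Apoc3 and Apoc2 are short (432, 492, 526 and 631 bases for the first GENCODE transcript), against 13369 bases for Apob.

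Apoa1 and Apoa2 are the principal proteins of HDL. Apoa1, which accepts cholesterol from Abca1 and activates the enzyme Lcat (ENSMUSG00000032083, chromosome 9, 46036663 to 46038549, mm9), had 598 FPKM in DMSO and 660 in GW3965, for a log2 ratio of 0.14. Apoa2, which shares HDL particles with it (ENSMUSG00000005681, chromosome 1, 173155185 to 173156510), had 631 and 564, a log2 ratio of -0.16. The HDL proteins stood on either side of 0, by 1.10-fold and 1.12-fold in FPKM. In the authors' deposited table neither was called, with p = 0.519 for Apoa1 and p = 0.411 for Apoa2.

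Apob, the scaffold of VLDL and LDL (ENSMUSG00000020609, chromosome 12, 7984454 to 8023641), had 244 FPKM in DMSO and 248 in GW3965, for a log2 ratio of 0.03. It has the longest transcript of the family, and its estimated fragments, about 203627 and 257711, were the most numerous. The 95% interval of its FPKM ratio was 1.01 to 1.02 from counting alone and 0.382 to 2.72 from the error that the statistic of the authors' deposited table implies. The former interval leaves out every difference between cultures. The latter is so wide that a change of 2-fold in Apob either way lies within it.

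Apoe (ENSMUSG00000002985, chromosome 7, 20281595 to 20284515) is the ligand by which remnant particles bind receptors on liver cells. It was the most abundant member, with 2779 FPKM in DMSO and 2498 in GW3965. Among genes without the mark for too many fragments it ranked 13 and 17. Its log2 ratio was -0.15. The interval of its FPKM ratio from the authors' deposited table was 0.524 to 1.54, which reaches past 1.5-fold in both directions. Macrophages also make Apoe. Of 16 listed macrophage and Kupffer cell markers, 15 were in the table and 12 reached the minimum FPKM, 8 of these with a ratio below 0 and a median of -0.12. Their summed FPKM was 250 in DMSO and 249 in GW3965, none was listed at 0, and their part in the Apoe level was not tested.

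The C apolipoproteins act on lipolysis and particle uptake. Apoc2, the cofactor that lipoprotein lipase needs (ENSMUSG00000002992, chromosome 7, 20256928 to 20266772), had 55.5 FPKM in DMSO and 55.4 in GW3965, with a log2 ratio of -0.0031 the nearest to 0 of the 10. Apoc3, which inhibits that lipase and slows remnant uptake (ENSMUSG00000032081, chromosome 9, 46041016 to 46043719), had 478 and 447 (log2 ratio -0.10). Apoc1, which hinders receptor uptake of particles (ENSMUSG00000040564, chromosome 7, 20274833 to 20278007), had 829 and 733 (log2 ratio -0.18). Apoc3 and Apoc1 stood below 0, by at most 1.13-fold in FPKM. For Apoc2 counting alone allows an FPKM ratio from 0.935 to 1.06, so its value has no direction. The level of Apoc2 is uncertain, because it shares its locus in the table with Apoc4, and 79.0% of the 25-base words of its transcripts also occur in the transcript of Gm44805 in GENCODE M21.

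Apoa5 and Apoa4 are the remaining members on chromosome 9. Apoa5, which helps lipoprotein lipase clear triglyceride (ENSMUSG00000032079, 46076716 to 46080002), was the lowest member at 3.51 FPKM in DMSO and 3.26 in GW3965 (log2 ratio -0.08). It rested on about 478 and 552 fragments, and counting alone allows an FPKM ratio from 0.821 to 1.05. Apoa4, a protein of chylomicrons and HDL that mouse liver also makes (ENSMUSG00000032080, 46048779 to 46051612), had 77.8 and 92.5 FPKM and the highest log2 ratio of the 10, 0.25. In the authors' deposited table Apoa4 had p = 0.275 and q = 1.00, without a call. Its locus is shared with Gm10680, annotated on the opposite strand, which was listed higher than Apoa4 itself at 128 FPKM in DMSO and 138 in GW3965. Of the 25-base words of Apoa4, 32.8% occur in Gm10680 and as many in Gm47528, another gene annotated on the opposite strand, which together make 65.7%. Of those of Apoa5, 19.1% occur in its antisense gene Gm47544. Strand handling is not given in the sources used here, so reads from the shared stretches cannot be assigned to either gene, and the levels of Apoa4 and Apoa5 are uncertain to that extent.

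Apof, known in humans as lipid transfer inhibitor protein (ENSMUSG00000047631, chromosome 10, 127705053 to 127707207), had 39.4 FPKM in DMSO and 22.5 in GW3965. It was 1.75-fold lower in FPKM, with a log2 ratio of -0.78, the only member past 1.5-fold. The level rested on about 2746 and 1946 fragments, and the 95% interval of the FPKM ratio of GW3965 to DMSO was 0.538 to 0.605 from counting alone and 0.443 to 0.735 from the authors' deposited table. Its place by level over the genes without the mark for too many fragments was 2087 in DMSO and 3617 in GW3965. Of the background genes 0.661% had a lower log2 ratio and 1.15% one larger in size. Of 12 listed hepatocyte markers 9 reached the minimum FPKM with a value, 5 of them below 0 and none past 1.5-fold, and their median log2 ratio was -0.12. Their summed level was 9350 FPKM in DMSO and 7220 in GW3965 without Alb and Trf, and the lowest ratio was that of Serpina1a at -0.46. Most of the difference in that sum lay in Hp (6437 and 4826 FPKM) and Fgb (2458 and 2000), while Ass1, Asgr1, Cps1 and Cyp2e1 had ratios above 0. That sum and Apof were both lower in GW3965, and the part of these cells in the Apof difference was not tested. In bulk RNA, fewer cells that make Apof and less Apof RNA per cell cannot be told apart.

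The authors' deposited table calls 43 genes, of which 18 are lower in GW3965, and Apof is among them with p = 1.40e-05 and q = 0.00702. Those are 0.285% of the 15090 genes it tested, and 0.119% for the lower ones. The 9 other apolipoproteins had p between 0.275 (Apoa4) and 0.989 (Apoc2) and q = 1.00 in the authors' deposited table. That test sets the reads of 2 libraries against each other and not the conditions, and a p that misses the threshold does not show that a gene stayed the same. Whether the Apof difference exceeds that of the other members was not tested.

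**Figure D2:**
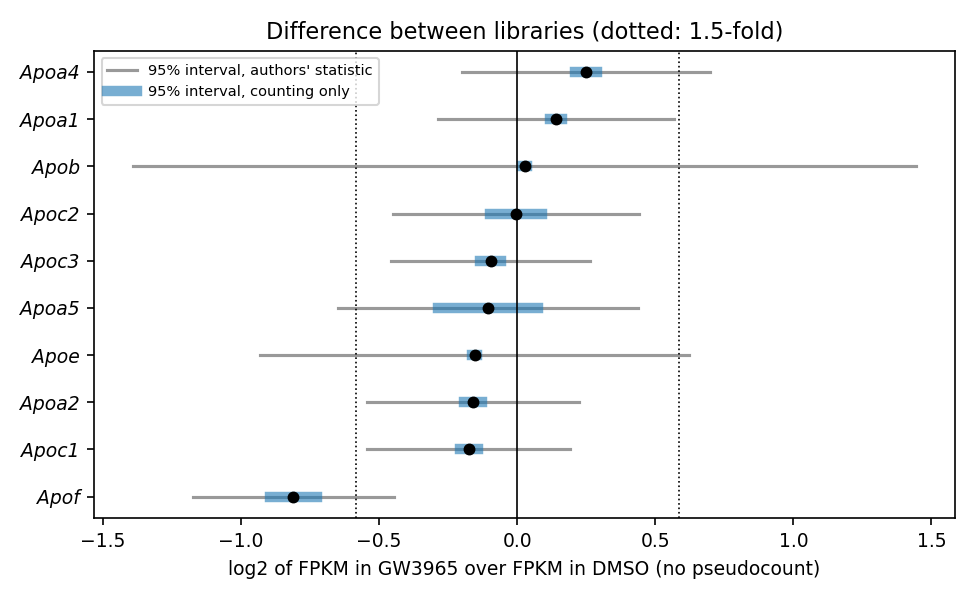
The log2 ratio of FPKM without a pseudocount for each apolipoprotein, with the 95% interval from counting alone (thick) and that implied by the authors' statistic (thin), and 1.5-fold marked by dotted lines. Apof lies below 0 by both intervals, while the thin intervals of the other 9 include 0 and those of Apob and Apoe reach past 1.5-fold on both sides.

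**Figure D3:**
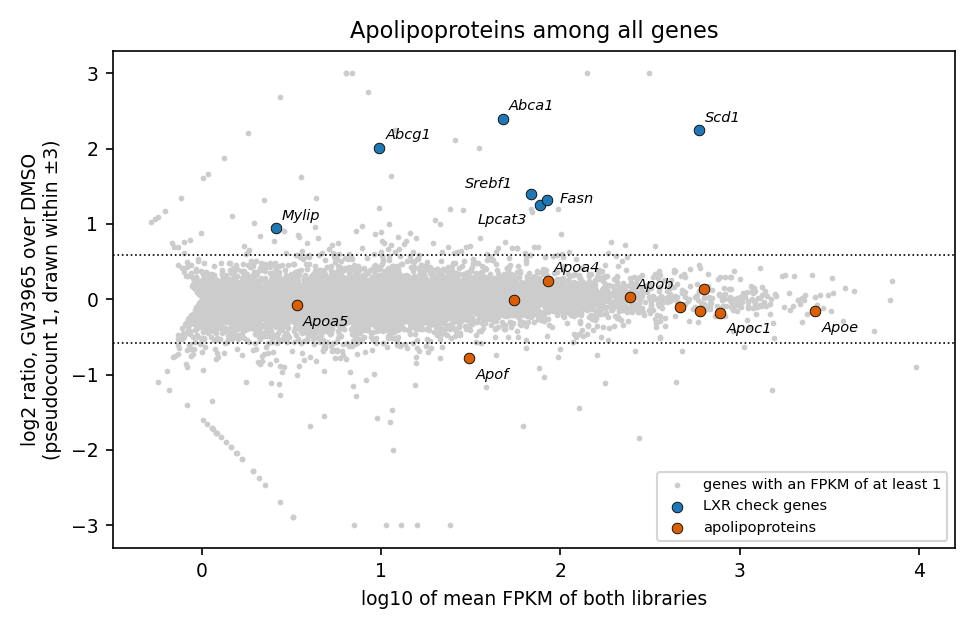
Log2 ratio of GW3965 to DMSO against the log10 of mean FPKM for the 11796 background genes (grey), the apolipoproteins (orange) and the 7 LXR check genes (blue), with 1.5-fold dotted. All LXR check genes lie above the upper line, and the apolipoproteins lie between the lines except Apof.

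Apoa1, Apoc3, Apoa4 and Apoa5 lie side by side on chromosome 9, and Apoe, Apoc1, Apoc4 and Apoc2 on chromosome 7. On chromosome 9, Apoa1 and Apoa4 had ratios above 0 (0.14 and 0.25), and Apoc3, between them on the other strand, and Apoa5 below 0 (-0.10 and -0.08). On chromosome 7, Apoe and Apoc1 were at -0.15 and -0.18, and Apoc2 and Apoc4 at -0.0031 and 0.07. The median of the members was 0.03 on chromosome 9 and -0.15 on chromosome 7, with 2 of 4 and 3 of 3 below 0. The 3 of 3 counts Apoc2 at -0.0031, which is in effect level. Of 26 other genes within 50 kb of a member 19 reached the minimum FPKM. None of them passed 1.5-fold, beside 2.35% of all background genes, and their log2 ratios ran from -0.44 to 0.35. Those ends were Apon, 12095 bases from Apof, and Zfp259 beside Apoa5. Stat2, 421 bases from Apof, was at -0.17.

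**Figure D4:**
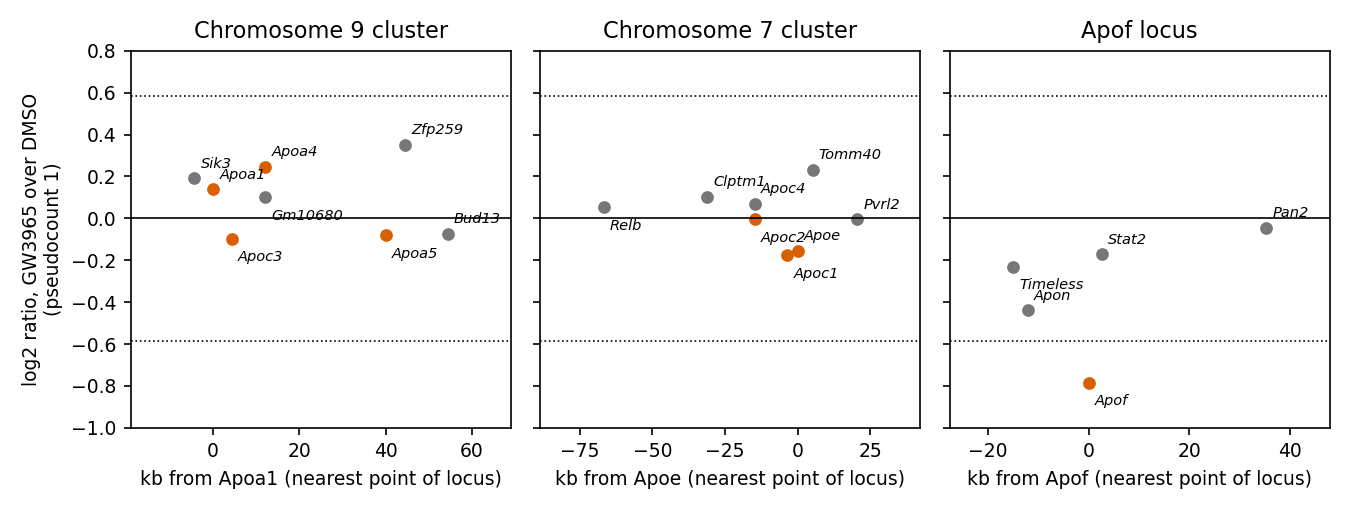
Log2 ratio of GW3965 to DMSO for apolipoproteins (orange) and other genes at the minimum FPKM within 50 kb of a member (grey). The horizontal axis is the distance in kb of the nearest point of the locus from the lowest coordinate of the named gene. Panels show the chromosome 9 cluster, the chromosome 7 cluster and Apof. In the panel of Apof the ratio of Apon is -0.44 and that of Apof -0.78, while the clusters scatter on either side of 0.

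Other genes with names tied to apolipoproteins, or known as apolipoproteins under another name, formed a list of 24. Of the list 22 were in the table and 16 reached the minimum FPKM. Among the 16, 0 were at least 1.5-fold higher and 1 lower, and the median log2 ratio was -0.06. The 1 lower was A1cf, which like Apobec1 acts in the editing of Apob mRNA and is not itself an apolipoprotein. Apon, close to Apof, had 13.3 FPKM in DMSO, 9.57 in GW3965 (-0.44), with p = 0.0355 and q = 1.00 in the authors' deposited table. Saa4, a constitutive HDL protein, had 18.2 and 11.8 FPKM (-0.58), which is past 1.5-fold in plain FPKM and just inside it with the pseudocount. In the authors' deposited table Saa4 had p = 0.00236 and q = 0.315, without a call. The acute phase proteins Saa1 and Saa2 were at 1402 and 1335 (-0.07) and at 571 and 617 (0.11), a pair whose reads may be split by their similar sequence. Apoh, Apom and Apoc4 were near 0 at 0.12, -0.09 and 0.07. So were Apoo, Apool and Apoa1bp at -0.06, -0.06 and -0.07, Apobr at 0.18 and Apold1 at 0.06. Apol9a and Apol9b, close paralogs, were at -0.32 and -0.24. Clu, also called apolipoprotein J, carries the mark for too many fragments and gives no value.

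The editing enzyme of Apob mRNA, which creates the stop codon of the short form Apob48, consists of Apobec1 and a cofactor, A1cf. Apobec1 had 69.8 FPKM in DMSO, 90.2 in GW3965 (0.36), and A1cf had 2.997 and 1.66 (-0.59). With the pseudocount, which understates the difference of a gene this low, A1cf was just past 1.5-fold, the only gene of that list to be so. In the authors' deposited table A1cf had p = 0.00147 and q = 0.241, and Apobec1 q = 1.00, so that neither was called. The edited share of Apob mRNA itself was not measured.

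Genes of VLDL assembly and secretion had a median log2 ratio of -0.05 over 22 genes, 1 of them at least 1.5-fold higher and 0 lower. Tmem41b, a membrane lipid scramblase of the endoplasmic reticulum, had 54.1 FPKM in DMSO and 88.2 in GW3965 (0.70). Creb3l3, a liver transcription factor that acts on apolipoprotein genes, had 5.67 and 3.49 (-0.57), and the phospholipase-like Pla2g12b 14.1 and 9.52 (-0.52). Acat2, also on the list, had 26.4 and 38.6 (0.53), but it encodes a thiolase of cholesterol synthesis and not a VLDL assembly protein. Mttp, the transfer protein that loads Apob with lipid, had 34.6 and 27.9 FPKM (-0.30), and was named after its value was seen. The authors' deposited table called 0 of the 23 list members it holds.

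Genes of HDL formation had a median log2 ratio of 0.07 over 11 genes, 2 of them at least 1.5-fold higher and 0 lower. Those were Abca1, which loads Apoa1 with cholesterol, at 14.6 FPKM in DMSO and 81.1 in GW3965 (2.40), and Abcg1 at 3.28 and 16.3 (2.01). Lcat, which Apoa1 activates, had 10.1 and 8.32 (-0.25), and Pcolce2, which aids the processing of Apoa1, 2.39 and 2.73 (0.14). Both exporters were called in the authors' deposited table, and Apoa1 was not.

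Receptors and surface binding genes had a median log2 ratio of 0.06 over 16 genes. Mylip, a ubiquitin ligase that acts on lipoprotein receptors, had 1.45 and 3.71 FPKM in DMSO and GW3965 (0.95). Lrp8, a receptor of Apoe, had 5.30 and 8.27 (0.56). Only Mylip among the 19 list members was called in the authors' deposited table. Among 7 partners in lipolysis, median 0.02, none passed 1.5-fold. Lpl, the lipase that Apoc2 activates, was at 0.32, Gm6484 (an older name of Angptl8) at -0.28 and Angptl4 at -0.09.

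**Figure D5:**
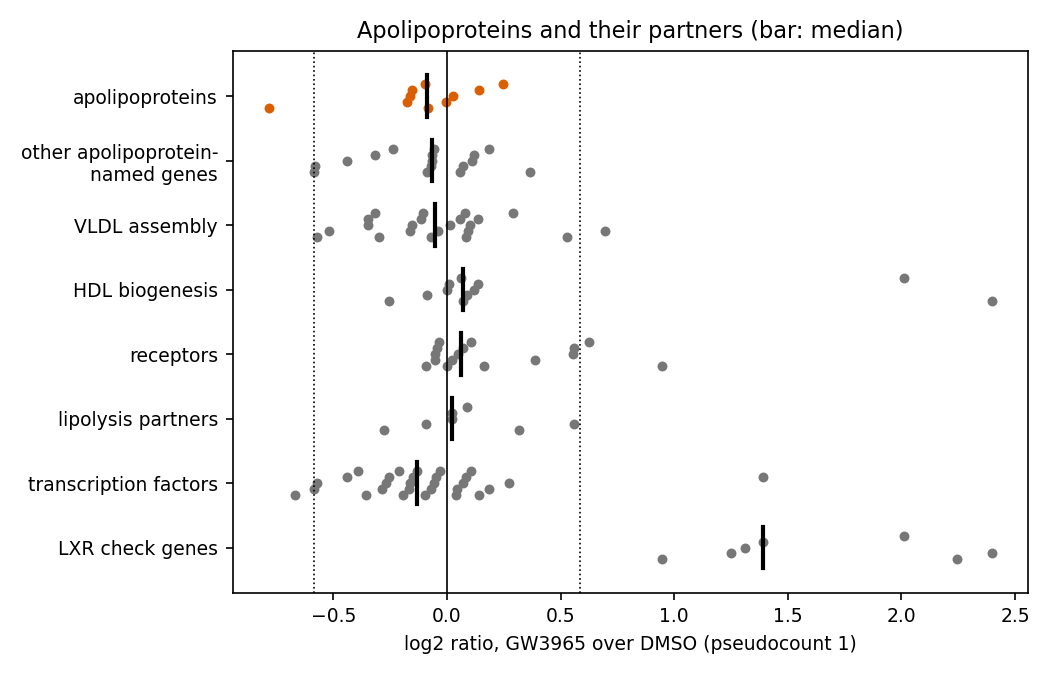
Log2 ratio of GW3965 to DMSO for each listed gene at the minimum FPKM (points) with each list's median (bar) and 1.5-fold dotted. The apolipoproteins (orange) have a median of -0.09, and the LXR check genes have one of 1.39.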

How the data were processed

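RNA was sequenced from 1 DMSO and 1 GW3965 library, built with Illumina's TruSeq preparation kit per the labels' protocols. Cuffdiff, Cufflinks 2.0.2, TopHat2 2.0.6 and CASAVA are named with the builds mm9 and NCBIM37 by the submitters' processing notes. For their settings, any use of strand and the scaling between libraries, nothing is given in the sources used here. All deposited values are FPKM made by the authors, 1 column per library per the file headers. The p-value, q-value and test statistic, a score, are the authors' own per the file headers. That score has the sign opposite to the fold.

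Ratios used a pseudocount of 1 FPKM. Genes with the mark for too many fragments (7) were left out of ratios, and a minimum FPKM of 1 in either library and a size of 1.5-fold were used for counts. No test was run. The standard error of a log2 FPKM ratio was taken as that ratio over the authors' score, and its 95% interval as 1.96 errors either way. Depth came from genes with 1 GENCODE M21 transcript: the lowest step of FPKM times length, less 155 bases, is 1 fragment. Among 2565 low genes 65.1% of ratios between libraries, divided by the step of 1.24, matched a quotient of 2 integers from 1 to 10 within 0.1%, against 1.01% after a shift of 3%. Fragment numbers of members use their first GENCODE transcript and are estimates, and exact binomial intervals from them cover counting error only. Locus starts were raised by 1, since 58.5% of 19846 loci with 1 gene then have the GENCODE length. The scripts were tested on simulated data.

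The members and lists were chosen with earlier results of these data known. Named genes were all members, the genes of the other apolipoprotein list at the minimum FPKM, up to 4 genes of each remaining list with the largest ratios, and neighbours within 50 kb, of which those with the lowest and highest ratio and those nearest to Apof are given. Some of the genes that this rule takes are left out of the text. A few more are said to be named after their values were seen. Alternatives were other pseudocounts, minimum values, thresholds, scalings and the genes the authors tested. The mismatch limit of 3 was chosen after matches were seen. Promoter sequences are those of RefSeq on GRCm38.p6, without the 50 bases after the start. The software was matplotlib 3.10.9, scipy 1.17.1, pandas 2.3.3, numpy 2.4.6 and Python 3.11.15.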

Additional observations from a re-analysis of the deposited data

How the results depend on the processing

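Alternatives were pseudocounts of 0.1 and 5, no minimum FPKM or one of 5, centring, scaling to 1 sum, and the genes the authors tested. Each apolipoprotein kept the sign of its log2 ratio under all of them, except that Apoa5 has no value at a minimum of 5. Only centring and scaling could change a sign, because a pseudocount, a minimum or the choice of genes cannot. In the other settings the kept signs are therefore no check. Apof ranged from -0.81 to -0.69, and the median of the 10 from -0.10 to -0.07. At a threshold of 2-fold, 0 apolipoproteins were lower, since Apof lies between 1.5-fold and 2-fold. Over all genes the count at least 1.5-fold higher was 120 and became 194 with a pseudocount of 0.1, 56 with one of 5 and 39 at 2-fold. The count lower was 157 and became 320, 56 and 55 in the same settings and 82 at a minimum FPKM of 5. The median of the LXR check genes was 1.31 with a pseudocount of 5 and 1.70 at a minimum FPKM of 5, which drops Mylip. The hepatocyte marker median was -0.21 with no minimum FPKM or one of 5, and the endothelial one 0.27 at a minimum of 5 and 0.11 over genes the authors tested. No paired analysis was possible because neither condition was sequenced more than once. Depth limits Apoa5 most among the members, and without replicates the difference between cultures is unknown for every gene.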

Other observations

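Transcription factors known to act on apolipoprotein genes formed a list of 32 genes, of which 29 reached the minimum FPKM. Their median log2 ratio was -0.13, with 20 of 29 below 0, 1 at least 1.5-fold higher and 1 lower. Over all background genes 47.1% were below 0, 2.35% passed 1.5-fold in either direction and 1.33% were lower by that much. Srebf1, an LXR target that encodes SREBP-1, had 37.6 FPKM in DMSO and 100.4 in GW3965 (1.39). Onecut1, a liver homeobox factor, had 1.24 and 0.409 (-0.67), Nr1h4, the bile acid receptor FXR, 4.47 and 2.65 (-0.58), and Creb3l3 5.67 and 3.49 (-0.57). Hnf4a, a main activator of apolipoprotein genes in hepatocytes, had 49.4 and 37.4 (-0.39) and was named after its value was seen. None of the 32 (0) was called in the authors' deposited table, which gave Srebf1 q = 0.709.

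Among markers of other liver cells, the median log2 ratio was 0.19 over 8 endothelial genes, 0.18 over 8 stellate cell and fibroblast genes and 0.07 over 3 cholangiocyte genes. Of the endothelial markers 6 of 8 were above 0, and Clec4g, at 2.14 FPKM in DMSO and 0.996 in GW3965 (-0.66), was the 1 past 1.5-fold. Spp1, which is not confined to cholangiocytes, had 4131 and 3373 FPKM (-0.29).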
